A study of Mus musculus with 287 samples.

Results

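Progenitor-leaning and neuron-leaning cells of mouse cerebral organoids were set against each other across all genes other than the pair that defined them. A cell was progenitor-leaning where its Fabp7 exceeded its Stmn2, and neuron-leaning where its Stmn2 was at least 4 times its Fabp7, both as exon counts per 1000000 exon counts of the cell (CPM). The cells were thus chosen by their measured Fabp7 and Stmn2 values. Of the labelled cells in which 1000 genes or more were counted, 81 were progenitor-leaning, 79 were neuron-leaning and 87 lay between the classes (intermediate). The rest of the series, 37 labelled cells with fewer genes and 3 cells without a clone label, was in no class.

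The study sequenced single fluorescent cells, drawn by glass pipette from located clones in organoids grown from mouse embryonic stem cells, with Smart-seq3 (full-length RNA sequencing of single cells). All cells, in every class, carry the genotype MADM-11GT/TG;Emx1-CreER+/-. In MADM, Cre recombination between the homologous chromosomes of a dividing cell can leave one daughter green and the other red. By its name the tamoxifen-inducible Cre is under the control of Emx1, a gene of the dorsal forebrain. The label does not say where the Cre sits. Labelling would then start in cells where this control was active at induction. Cre was activated on day 13 by 4-hydroxytamoxifen at 60 nM, and the organoids were taken on day 20. The labels give each cell a plate (1 to 3), a clone, a colour and a clone type, SN (46 clones) or N (22 clones), without saying what SN and N stand for. The collection protocol speaks of the picked cells as neurons, and no organoid is named for any clone.

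Radial glia are the stem cells of the developing cortex. They divide at the ventricular surface, keep themselves through Notch signalling, and give rise to neurons directly or through intermediate progenitors. Fabp7 (brain lipid-binding protein) is an abundant radial glial fatty-acid carrier and, in mouse, a known target of Notch signalling. Stmn2 (stathmin-2) binds tubulin in the growth cones of young neurons.

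The sequences printed here are the windows around the annotated starts of Fabp7, which chose the progenitor-leaning cells, of Ptn and Tnc, which lay on their side at the smallest p-values after Dbi, and of Tubb3, a neuronal tubulin on the other side. They come from RefSeq (GRCm38.p6), from 250 bases before to 50 bases after the start, and read 5′ to 3′ on the gene's strand. Capitals mark TGGGAA or its reverse complement TTCCCA, the core bound by RBPJ, the DNA-binding partner of Notch. The matches do not overlap one another.
Fabp7, chr10:57784673-57784972, plus strand: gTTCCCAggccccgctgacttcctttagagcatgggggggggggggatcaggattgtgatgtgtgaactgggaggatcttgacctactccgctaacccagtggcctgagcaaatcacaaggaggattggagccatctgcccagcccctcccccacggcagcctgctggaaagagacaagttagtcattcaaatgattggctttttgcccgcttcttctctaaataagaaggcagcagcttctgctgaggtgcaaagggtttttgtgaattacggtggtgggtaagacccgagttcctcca
Ptn, chr6:36810130-36810429, minus strand: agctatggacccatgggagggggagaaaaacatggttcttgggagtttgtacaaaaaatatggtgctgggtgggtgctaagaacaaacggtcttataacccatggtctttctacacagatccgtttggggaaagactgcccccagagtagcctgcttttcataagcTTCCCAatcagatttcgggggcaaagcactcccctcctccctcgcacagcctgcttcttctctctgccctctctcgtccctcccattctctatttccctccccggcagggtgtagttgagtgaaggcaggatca
Tnc, chr4:64046966-64047265, minus strand: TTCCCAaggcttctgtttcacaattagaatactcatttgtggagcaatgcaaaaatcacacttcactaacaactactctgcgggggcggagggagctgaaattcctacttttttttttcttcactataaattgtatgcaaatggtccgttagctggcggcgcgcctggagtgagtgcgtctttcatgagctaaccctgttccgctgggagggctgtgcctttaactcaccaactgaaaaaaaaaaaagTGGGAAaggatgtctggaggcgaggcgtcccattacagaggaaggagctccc
Tubb3, chr8:123411303-123411602, plus strand: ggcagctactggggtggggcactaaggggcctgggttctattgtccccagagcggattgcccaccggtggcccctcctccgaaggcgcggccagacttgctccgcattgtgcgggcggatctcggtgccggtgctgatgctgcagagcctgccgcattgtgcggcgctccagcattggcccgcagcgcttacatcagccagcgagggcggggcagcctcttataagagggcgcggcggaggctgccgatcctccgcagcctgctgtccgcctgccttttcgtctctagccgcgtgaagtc
The core occurred in the Fabp7 window once, in the Ptn window once, in the Tnc window at 2 places and in the Tubb3 window not at all. Of all 32851 windows of the same length, 25.6% held it. Tnc has a further annotated start that is not shown, whose window held the core at 1 place. These matches describe the letters only.

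The values of Fabp7 and Stmn2 chose the cells and are given as a description, with no test. Fabp7 ran from 286.7 to 28704 CPM in progenitor-leaning cells (median 2903) and from 0 to 2296 CPM in neuron-leaning cells (median 365). Stmn2 ran from 0 to 9779 CPM in progenitor-leaning cells (median 1329) and from 0 to 12286 CPM in neuron-leaning cells (median 3953). Most progenitor-leaning cells thus also held Stmn2, and most neuron-leaning cells Fabp7: Stmn2 was at 0 in 7 of the 81, and Fabp7 at 0 in 11 of the 79. The last cell inside the progenitor-leaning class had 1412 CPM of Fabp7 and 1370 CPM of Stmn2, and the first outside it had 1807 and 1821 CPM. The last cell inside the neuron-leaning class had 1151 CPM of Fabp7 and 4862 CPM of Stmn2, and the first outside it had 1331 and 5251 CPM. A neuron-leaning cell of clone 3 with 20834 exon counts had neither gene and met the rule only as 0 against 0, and another of clone 16 had a Stmn2 count of 2 and none of Fabp7. Intron counts were not read by the rule but come from the same cells. Fabp7 introns had a median of 388 intron CPM over the progenitor-leaning sums and 30.8 over the neuron-leaning sums.

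**Figure D1:**
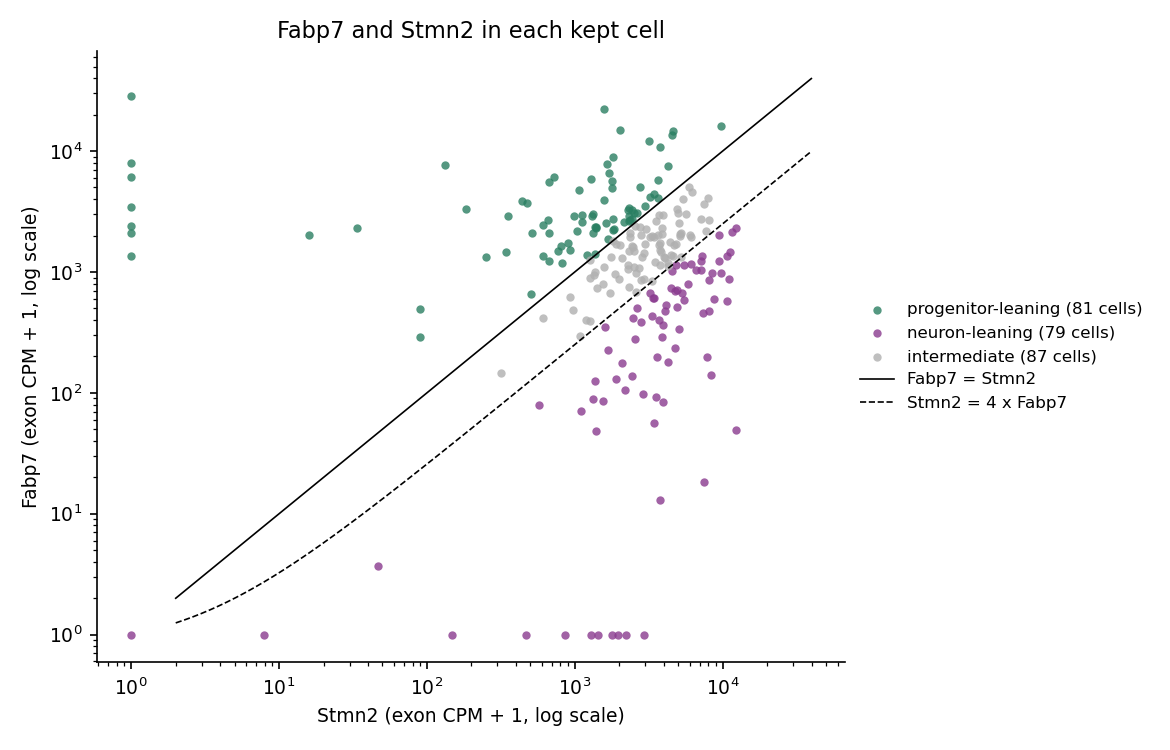
Fabp7 against Stmn2 in each kept cell, as exon CPM plus 1 on log axes; the solid line marks equal levels and the dashed line Stmn2 at 4 times Fabp7. Progenitor-leaning cells lie above the solid line, neuron-leaning cells below the dashed line, and intermediate cells between the lines, with no gap at either line. The neuron-leaning cell of clone 3 with 0 CPM of both genes is the exception and lies in the lower left corner.

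The classes were unevenly spread over plates and colours. On plate 1, 18 of 90 kept cells were progenitor-leaning and 47 neuron-leaning, on plate 2, 32 and 14 of 77, and on plate 3, 31 and 18 of 80 (clone 45, whose cells lay on 2 plates, was put on plate 3). Plate was therefore a term in the comparison of all clones. Colour was not a term in any gene fit, including those within clone. Exon counts ran from 18255 to 8121900 in progenitor-leaning cells (median 1032000) and from 8078 to 13040000 in neuron-leaning cells (median 1832100). Over the 17 clones that held both classes, log10 exon counts averaged 5.89 ± 0.58 in progenitor-leaning and 6.13 ± 0.53 in neuron-leaning cells (SD), and genes detected after thinning to 20000 exon counts averaged 2567 ± 944 and 2774 ± 1091. The differences of -0.24 and -208 had an adjusted p of 0.595 each (two-sided sign-flip permutation test, 100000 resamples, adjusted over 6 measures). The intron share, the mitochondrial share, the ribosomal protein share and the share of the most abundant ID without a symbol had the same adjusted p.

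Cells of a clone share their origin, so exon counts were summed per clone and class, and cells were not taken as replicates. The sum was the unit of the gene tests, and the clone that of the tests of shares and per-cell measures. The 17 clones that held both classes gave a sum of each. Except in the fits that had the clone as a term, sums of the same clone were taken as separate. The 81 progenitor-leaning cells gave 41 sums and the 79 neuron-leaning cells 38, of which 19 and 21 held a single cell. Clones may come from a common organoid, so the p-values reflect only how clones or their sums vary and may be too small.

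On the progenitor-leaning side lay Dbi, Ptn and Tnc, and on the neuron-leaning side Dpysl3, Tubb2b and Tubb3. None of the 6403 genes tested passed an adjusted p of 0.05 in edgeR's quasi-likelihood test (0% called). At an unadjusted p under 0.05 the test had 321 genes (5.01%), 2.26% above 0 and 2.75% below 0. On the same sums limma-voom called 18 genes (0.281%, of which 0.125% above 0 and 0.156% below) and DESeq2 called 15 (0.234%, of which 0.141% above 0 and 0.0937% below). DESeq2 gave some of these genes, Ldb2 among them, no adjusted p, and its shares are of all genes tested. limma-trend with equal weight for each cell within its clone and class called 2 (0.0312%, with 0.0156% on each side). In place of sums it took the mean log2 of CPM plus 1 over the cells of a clone and class, without TMM scaling. Each such mean weighed the same, whatever its number of cells. This setting is called equal weight per cell below. Together the 3 tools called 28 genes, of which 6 were called by at least 2 of them (Dbi, Ptn, Tnc, Dpysl3, Ina and Rtn1) and 1, Dbi, by all 3. Genes below that are named for a call by one of these tools were chosen after their values were seen, as were the following. DESeq2 alone also called Cenpa (edgeR log2 difference 3.625), Slc9a3r1 (3.28), Clic1 (2.87), Ythdf3 (2.26), Gm5805 (1.18), Slc25a22 (-2.43), Nkain1 (-2.67) and Sh3bp2 (-3.07). limma-voom alone also called Gstm1 (1.60), Mllt11 (-1.19) and Ctnna2 (-1.95).

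Dbi encodes the acyl-CoA-binding protein, a lipid carrier of radial glia and astrocytes. It ran from 0 to 2306 CPM over the progenitor-leaning sums (median 492.6) and from 0 to 764 CPM over the neuron-leaning sums (median 168.2). The ranges overlapped, and the upper end was reached by progenitor-leaning sums. The log2 difference was 1.70 ± 0.41 (SE), with an adjusted p of 0.281 in edgeR, 0.00173 in DESeq2 and 0.00519 in limma-voom.

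Ptn encodes pleiotrophin, a secreted growth factor. It ran from 0 to 1413 CPM in progenitor-leaning sums (median 428) and from 0 to 844 CPM in neuron-leaning sums (median 144.2), a log2 difference of 1.54 ± 0.41 with an adjusted p of 0.281 in edgeR and 0.003 in DESeq2. Tnc encodes tenascin-C, a matrix glycoprotein of the germinal zones. It reached 499 CPM in progenitor-leaning sums (median 8.65, 16 of 41 at 0) and 128.4 CPM in neuron-leaning sums (median 0, 20 of 38 at 0). Its log2 difference was 3.31 ± 0.89 and its adjusted p 0.281 in edgeR and 0.0108 in limma-voom. Without clone 37 the adjusted p of Tnc was 0.0446 in edgeR, the single gene called in any of the 62 fits that left out 1 clone.

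Dpysl3, a growth cone protein of the collapsin response mediator family, ran from 115.6 to 4307 CPM in progenitor-leaning sums (median 1107) and from 550 to 4462 CPM in neuron-leaning sums (median 2104). Tubb2b, a beta tubulin of migrating neurons, had 171.96 to 5832 CPM in progenitor-leaning sums (median 2015) and 1174 to 9130 CPM in neuron-leaning sums (median 3096). Tubb3, the neuronal beta tubulin, had a median of 682 CPM in progenitor-leaning sums and 1388 CPM in neuron-leaning sums. For each of the 3 genes the ranges overlapped over most of their width and the medians stood apart. The log2 differences were -0.88 ± 0.23 for Dpysl3 and -0.77 ± 0.20 for Tubb2b, both at an adjusted p of 0.281 in edgeR, and -1.09 ± 0.30 for Tubb3 at 0.338. In limma-voom the adjusted p was 0.00215 for Dpysl3, 0.0108 for Tubb2b and 0.261 for Tubb3. In DESeq2 it was 0.0381, 0.0697 and 0.0799 in the same order. An edgeR fit of green cells alone was added after the data had been seen. There Tubb2b had a log2 difference of -1.23 at an adjusted p of 0.0369 and was the 1 gene called.

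**Figure D2:**
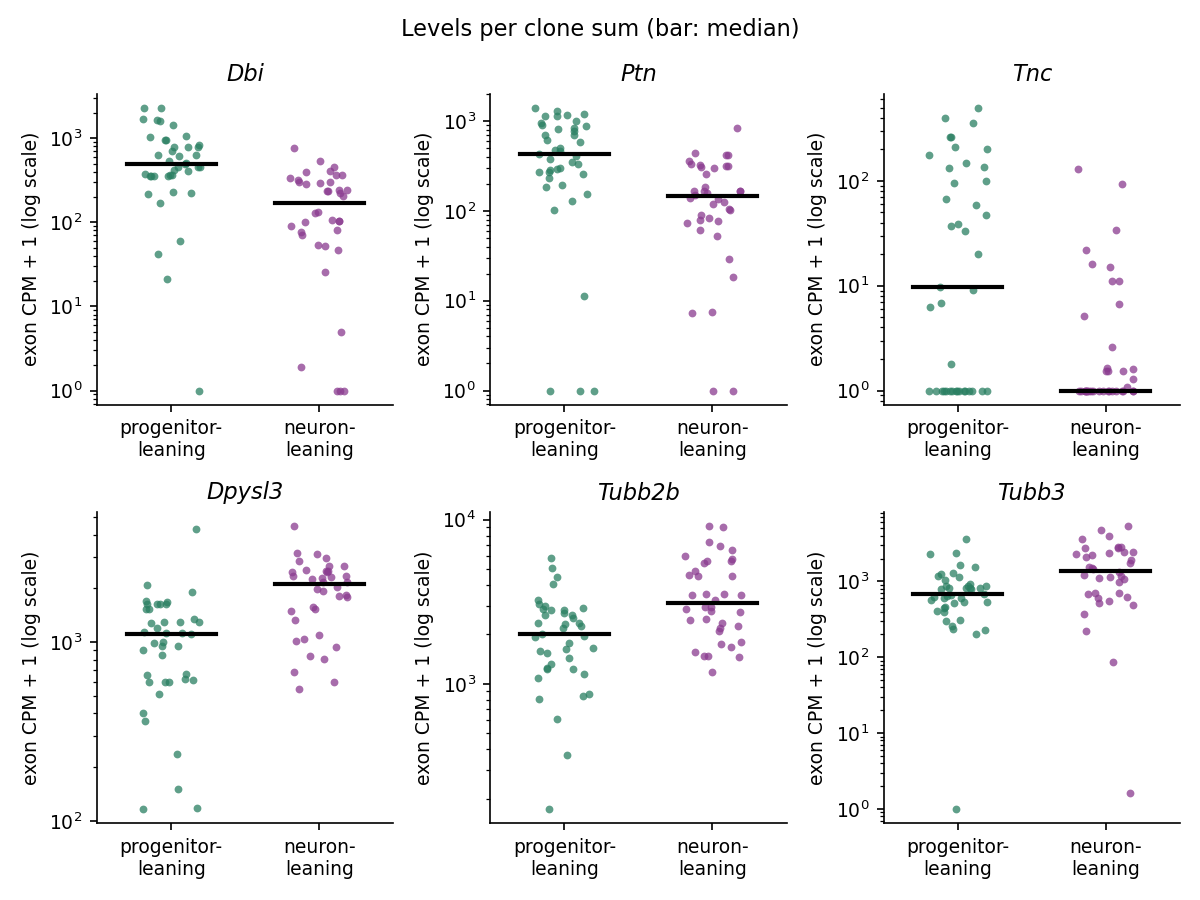
Exon CPM plus 1 (log scale) of 6 genes in each clone sum, 41 progenitor-leaning on the left and 38 neuron-leaning on the right of each panel, with the median as a bar. Dbi, Ptn and Tnc have the higher median among progenitor-leaning sums and Dpysl3, Tubb2b and Tubb3 among neuron-leaning sums, and the ranges overlap in every panel.

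Genes of radial glia lay almost all on the progenitor-leaning side. Of 19 tested members of the radial glia list other than Fabp7, 18 had a log2 difference above 0, with a median of 1.32, against 2963 of all 6403 genes (46.3%) and a median of -0.06. The test put 9 of the 19 at an unadjusted p under 0.05, all above 0. Besides Dbi and Tnc, Ttyh1, a membrane protein of radial glia, reached 846 CPM in progenitor-leaning sums (median 118) and 240 CPM in neuron-leaning sums (median 14.8), a log2 difference of 2.31 ± 0.71. The stem cell transcription factor Sox2 had medians of 86.2 CPM in progenitor-leaning and 17.0 CPM in neuron-leaning sums, with a difference of 2.33 ± 0.77. The exception, named after its values were seen, was Fabp5, a sister gene of Fabp7, at -0.01 ± 0.29. Vim, the intermediate filament of radial glia, had medians of 606 CPM in progenitor-leaning and 310 CPM in neuron-leaning sums (1.16 ± 0.41, adjusted p 0.0466 in limma-voom). Outside the list, Ednrb, an endothelin receptor, had medians of 95.8 and 0.44 CPM in the same order (2.29 ± 0.81, adjusted p 0.00215 in limma-voom and 0.209 in DESeq2). The list has 25 genes in the table, Fabp7 among them, and the 19 are those that passed the filter on low counts, which a gene high in 1 class passes more easily.

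Genes of the cell cycle leaned the same way with smaller values. Their log2 differences were above 0 for 12 of 13 tested members (median 0.86), and 3 of the 12 had an unadjusted p under 0.05. The 13 are those of 28 listed genes that passed the filter on low counts, which a gene high in 1 class passes more easily. Ccnd2, a D-type cyclin of cortical progenitors, had medians of 730 CPM in progenitor-leaning and 306 CPM in neuron-leaning sums, with a log2 difference of 1.43 ± 0.46 and an adjusted p of 0.635 in edgeR. Top2a, the topoisomerase of dividing cells, had medians of 89.5 and 33.8 CPM in the same order (1.65 ± 0.67). Rrm2, a subunit of the enzyme that makes deoxynucleotides, had a median of 3.73 CPM in progenitor-leaning sums and 0 in neuron-leaning sums (2.44 ± 0.89). Both genes were counted in about as many cells of each class. Top2a had a count in 53 of 81 progenitor-leaning and 50 of 79 neuron-leaning cells, and Rrm2 in 31 and 28. Mki67, the proliferation antigen, was the 1 member below 0, at -0.24 ± 0.84, and is named after its value was seen.

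Of 10 tested genes of intermediate progenitors 6 lay above 0, with a median of 0.24, against -0.06 over all genes. With equal weight per cell the median was -0.07, against -0.39 over all genes. Btg2, an antiproliferative gene of neurogenic divisions, had a difference of 1.08 ± 0.83, the Notch ligand Dll1 0.94 ± 0.89 and Elavl2, a neuronal RNA-binding protein, -0.49 ± 0.59. Dll1 and Elavl2 changed sign among green cells alone. Of the Notch pathway, 3 of 18 genes passed the filter on low counts: the Notch target Hes5 had 1.32 ± 0.88, Dll1 the value above, and Numbl, a relative of the Notch inhibitor Numb, 0.22 ± 0.76. The median of the 3 was 0.94, and -0.09 with equal weight per cell.

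The neuronal lists lay on the other side. All 13 tested genes of immature excitatory neurons were below 0 (median -0.62, 5 at an unadjusted p under 0.05), as were all 23 tested pan-neuronal genes other than Stmn2 (median -0.65, 9 at an unadjusted p under 0.05). Within the clones that held both classes, the median of the immature excitatory genes was -0.43, no lower than the -0.49 of all genes. Gap43, a growth cone protein, had medians of 824 CPM in progenitor-leaning and 1445 CPM in neuron-leaning sums, a log2 difference of -0.88 ± 0.25 and an adjusted p of 0.425 in edgeR and 0.0414 in limma-voom. Rtn1, a reticulon of the neuronal endoplasmic reticulum, had medians of 367 and 739 CPM in the same order (-1.04 ± 0.31), with an adjusted p of 0.523 in edgeR and 0.00819 in DESeq2. Ina, a neuronal intermediate filament, had medians of 184.6 and 439 CPM (-1.23 ± 0.38), with an adjusted p of 0.534 in edgeR and 0.0163 in DESeq2. Sox11, a transcription factor of new neurons, had medians of 1672 and 2824 CPM (-0.63 ± 0.22). Neurod2, a transcription factor of excitatory neurons, had medians of 75.3 and 205.8 CPM (-1.14 ± 0.50, adjusted p 0.0436 in limma-voom).

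Of 29 tested genes of axon growth and the cytoskeleton 24 were below 0, with a median of -0.56 and 13 at an unadjusted p under 0.05 against none above 0. The 5 above 0, named after their values were seen, were Marcks (0.43 ± 0.32), Nrcam (0.42 ± 0.57), Cnr1 (0.31 ± 0.60), Kif5a (0.20 ± 0.59) and Marcksl1 (0.09 ± 0.32). Mapt, which encodes tau, had medians of 801 CPM in progenitor-leaning and 1768 CPM in neuron-leaning sums (-0.84 ± 0.28), with an adjusted p of 0.639 in edgeR and 0.0108 in limma-voom. The alpha tubulin gene Tuba1a had the smallest difference of the 28 genes called by any of the 3 other tools, with medians of 3249 and 4597 CPM in the same order (-0.44 ± 0.17) and an adjusted p of 0.0052 in limma-voom and 0.535 in DESeq2. The list shares genes such as Tubb2b, Tubb3, Gap43 and Mapt with the neuronal lists, so these counts are not separate.

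Genes of synapses and channels were mostly below 0, with few at a small p. Of 26 synaptic genes tested 21 were below 0 (median -0.41), of 15 ion channel genes 13 (median -0.50) and of 20 neuronal RNA-binding genes 15 (median -0.53), with 1, 1 and 0 genes below 0 at an unadjusted p under 0.05, where 2.75% of all genes were. Cplx2, a complexin of vesicle release, had medians of 83.4 CPM in progenitor-leaning and 205.9 CPM in neuron-leaning sums (-1.23 ± 0.53). Scn3a, a sodium channel of the fetal brain, had medians of 7.90 and 73.4 CPM in the same order (-1.56 ± 0.72), and its sign turned among N clones alone. Grin1, an NMDA receptor subunit, had a difference of 1.52 ± 0.81 whose sign turned under limma-voom.

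**Figure D3:**
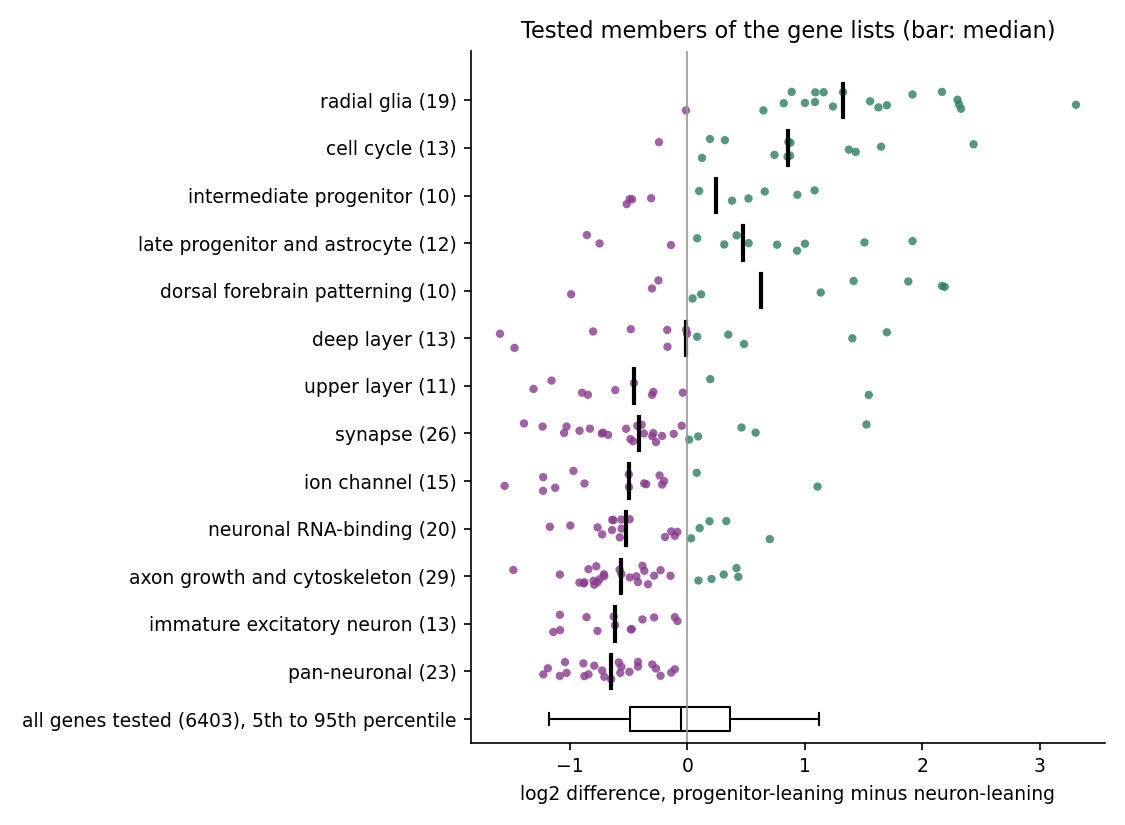
Log2 difference, progenitor-leaning minus neuron-leaning, of each tested member of 13 gene lists (number of members in brackets) with the list median as a bar, over a box of all 6403 genes (quartiles and median, whiskers at the 5th and 95th percentile). Radial glia and cell cycle members lie to the right with medians of 1.32 and 0.86, and pan-neuronal and immature excitatory members to the left with medians of -0.65 and -0.62.

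Layer and patterning genes lay on both sides. Of 13 deep layer genes tested 5 were above 0 (median -0.01). Bcl11b, a transcription factor of subcerebral projection neurons, had medians of 78.2 CPM in progenitor-leaning and 237.5 CPM in neuron-leaning sums (-1.47 ± 0.56). Zfpm2, which in the mouse cortex marks corticothalamic neurons, had a difference of 1.70 ± 0.92, but 0.69 in limma-voom and 0.40 with equal weight per cell. Its medians were 5.62 and 3.21 CPM, it reached 1361 and 167.6 CPM, and it was counted in 30 progenitor-leaning and 38 neuron-leaning cells. Of 11 upper layer genes 2 were above 0 (median -0.46), and 1 of these was Ptn. Among 10 patterning genes, Pax6 (2.17 ± 0.79), Emx2 (2.19 ± 0.86) and Otx1 (1.88 ± 0.80), transcription factors of the dorsal ventricular zone, were above 0. The median of the 10 was 0.63, but -0.17 on plate 1 and -0.12 on plate 2. Emx1, after which the Cre is named, had a median of 0 CPM in progenitor-leaning and 0.68 CPM in neuron-leaning sums. It reached 385 and 146.6 CPM in the same order, and the sign of its difference (1.13 ± 0.94) turned under limma-voom.

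Astrocyte and late progenitor genes had 9 of 12 above 0 (median 0.47). Aldoc, a glycolytic enzyme of glia, had medians of 59.4 CPM in progenitor-leaning and 11.3 CPM in neuron-leaning sums (1.92 ± 0.68), and Apoe, the lipid carrier of astrocytes, 118.9 and 35.1 CPM (1.51 ± 0.76). Nfix, a nuclear factor I gene that rises late in cortical lineages, had medians of 146.3 and 304 CPM (-0.75 ± 0.42). Id3, an inhibitor of bHLH factors and a target of BMP signalling, had medians of 45.9 and 0.62 CPM (1.70 ± 0.73, adjusted p 0.0410 in limma-voom and 0.285 in DESeq2). Of the Id and BMP genes 3 of 7 tested were above 0 (median -0.20), of the Sox factors 3 of 7 (median -0.0030) and of the genes of early progenitor timing 2 of 3 (median 0.58, and -0.25 with equal weight per cell, which put all genes at a median of -0.39). Mycn, a growth regulator, lay on the neuron-leaning side with medians of 1.97 and 62.8 CPM (-1.89 ± 0.72), and its adjusted p of 0.0483 with equal weight per cell was 0.810 in edgeR.

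Ribosomal protein genes had 77 of 83 above 0 in the comparison of all clones, with a median of only 0.28 and 7 at an unadjusted p under 0.05. Rpl39 had medians of 560 CPM in progenitor-leaning and 359 CPM in neuron-leaning sums (0.87 ± 0.33). Within clone the count was 38 of 83 and the median -0.04, where 34.3% of all genes lay above 0 and their median was -0.49. All 7 tested mitochondrially encoded mRNAs were above 0 (median 0.36, -0.07 on plate 2), and 46 of 77 nuclear genes of the respiratory chain were (median 0.07). Lists of cholesterol synthesis, glycolysis, stress, p53 and immediate early genes had medians between -0.38 and 0.13 and each had no more than 1 gene per direction at an unadjusted p under 0.05.

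Markers of other cell types that a pipette could have caught were counted in both classes, and their part in the differences was not tested. The 11 oligodendrocyte lineage genes summed to 0 to 835.5 CPM in progenitor-leaning sums (median 114.2) and 0 to 779 CPM in neuron-leaning sums (median 43.3). Of these Olig1, a transcription factor that cortical progenitors can also hold, was the 1 gene that passed the filter, with a difference of 1.82 ± 0.83 and an adjusted p of 0.0392 in limma-voom. The 11 Cajal-Retzius genes summed to medians of 166.7 and 122.03 CPM, and reached 4010 and 900 CPM in the same order, with Reln, the secreted reelin of these cells, at 2.16 ± 0.82. GABAergic neuron genes had medians of 44.9 and 36.6 CPM, mesenchymal genes 125.8 and 217.6, choroid plexus and hem genes 17.1 and 39.9, and microglial and endothelial genes 3.92 and 1.201. Of the pluripotency list Dppa5a was at 0 throughout, and the median sum of 103.5 CPM in progenitor-leaning sums and 28.6 CPM in neuron-leaning sums contains Sox2.

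Within a clone that held both classes, they share the clone type and the plate. In 17 clones (8 SN and 9 N, with 8, 4 and 5 on plates 1 to 3) both classes were present, with 31 progenitor-leaning and 37 neuron-leaning cells. In clone 1, for instance, the progenitor-leaning cell had 701 CPM of Dbi and 875 CPM of Tubb3, and its 2 neuron-leaning sisters together had 219.3 CPM of Dbi and 5344 CPM of Tubb3. Clone 68 went the other way for Tubb3, with 3583 CPM in its 3 progenitor-leaning cells and 1065 CPM in its neuron-leaning cell. Of 5096 genes tested with the clone as block, edgeR called none (0%). At an unadjusted p under 0.05 there were 83 genes (1.63%), 5 above 0 (0.0981%) and 78 below 0 (1.53%), and the smallest adjusted p was 0.999. limma-voom called none either (0%), while DESeq2 called 303 (5.95%), 41 of them above 0 (0.805%) and the rest below (5.14%). The count within clone thus rests on the tool, and no gene is named from it.

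Within clone, Ptn, Dbi and Vim were higher in the progenitor-leaning sum of most clones, and Gap43, Rtn1 and the tubulins lower. Ptn was higher in the progenitor-leaning sum in 14 of 17 clones, with medians of 428 CPM in progenitor-leaning and 124.03 CPM in neuron-leaning sums, Dbi in 13 (421 and 242.4 CPM) and Vim in 12 (605 and 385 CPM). The fitted log2 differences within clone were 1.75 ± 1.03 for Ptn, 0.86 ± 0.93 for Dbi and 1.10 ± 0.84 for Vim, beside 1.54 ± 0.41, 1.70 ± 0.41 and 1.16 ± 0.41 in the comparison of all clones. Gap43 was lower in the progenitor-leaning sum in 14 of 17 clones (724 and 1572 CPM), Rtn1 in 14 (313 and 739 CPM), Tubb2b in 13 (2192 and 3532 CPM) and Tubb3 in 12 (596 and 1218 CPM). Their fitted differences were -1.11 ± 0.49, -1.44 ± 0.74, -0.86 ± 0.33 and -1.12 ± 0.50 in the same order, and the adjusted p of all 7 genes was 0.999 in edgeR. Clones that went the other way were found for every one of these genes. Other genes were less one-sided: Tnc was higher in the progenitor-leaning sum in 7 clones, lower in 4 and equal in 6. Ttyh1 was higher in 9 of 17 clones (log2 difference 0.62 ± 2.21), Ccnd2 in 9 (0.23 ± 0.84), and Sox2 in 9 and equal in 1 (1.69 ± 2.44). Radial glia genes were above 0 in 13 of 16 tested (median 0.88) and pan-neuronal genes in 1 of 23 (median -1.11), beside 1750 of 5096 genes (34.3%) and a median of -0.49 over all genes. Axon growth genes had 3 of 29 above 0 (median -0.69) and ion channel genes 2 of 15 (median -1.16). Other neuronal lists did not lie below all genes in their median: immature excitatory genes had 1 of 13 above 0 (median -0.43), synaptic genes 10 of 26 (median -0.43) and neuronal RNA-binding genes 4 of 20 (median -0.28). Cell cycle genes had 4 of 6 above 0 (median 0.30), astrocyte and late progenitor genes 6 of 12 (median 0.01) and patterning genes 3 of 7 (median -0.39). The clones are among those of the comparison of all clones, so these values are no separate sample.

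**Figure D4:**
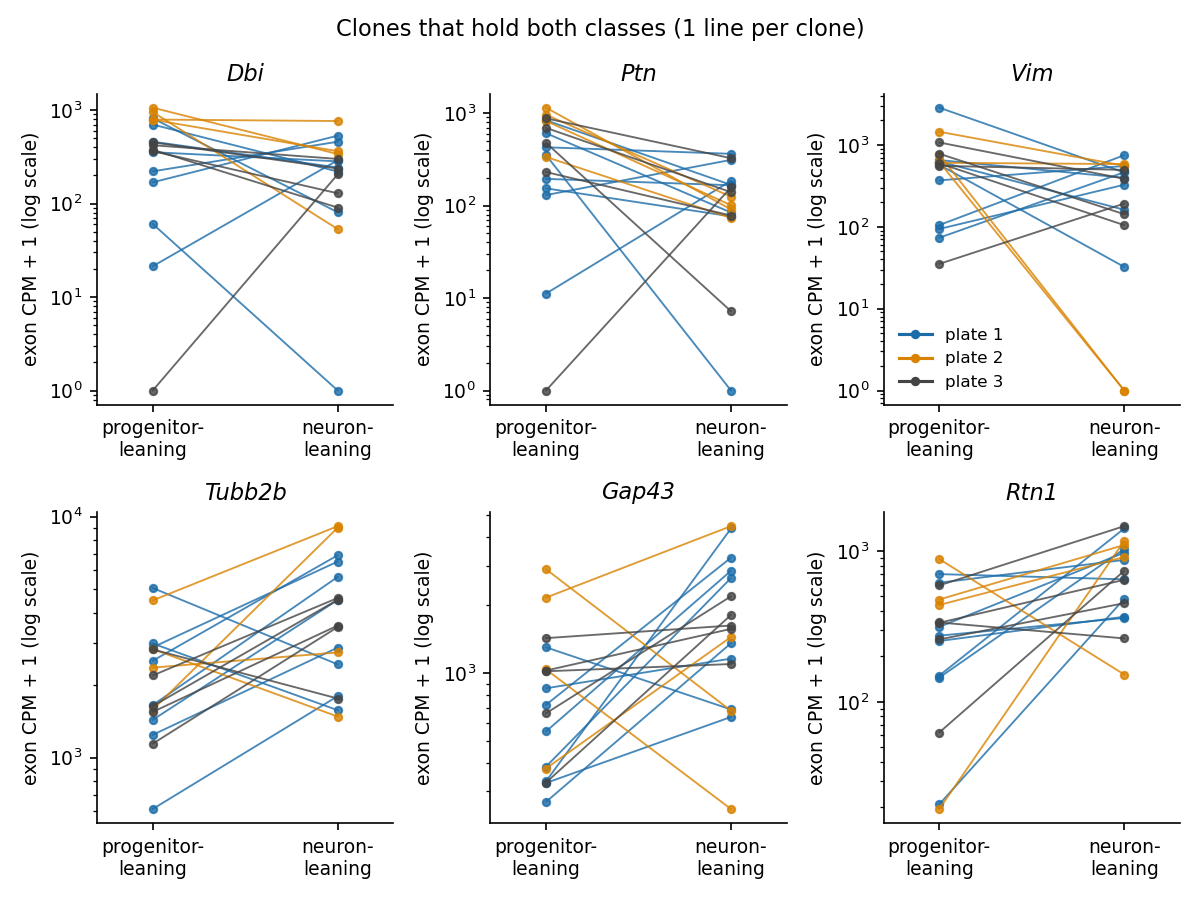
Exon CPM plus 1 (log scale) of 6 genes in the 17 clones that hold both classes, with 1 line per clone from its progenitor-leaning sum (left) to its neuron-leaning sum (right), coloured by plate. Ptn, Dbi and Vim are higher on the left in 14, 13 and 12 clones, and Tubb2b, Gap43 and Rtn1 on the right in 13, 14 and 14.

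Fits of single plates called no gene either: 0 of 6645 on plate 1, 0 of 4053 on plate 2 and 0 of 6891 on plate 3 (0% each). At an unadjusted p under 0.05 plate 1 had 306 genes (4.6%), with 0.707% above 0 and 3.9% below. Plate 2 had 2.91%, with 2.47% above 0 and 0.444% below, and plate 3 had 2.93%, with 1.15% above 0 and 1.78% below. Over all genes the plates had median log2 differences of -0.29, 0.23 and -0.17 in this order. Dbi had log2 differences of 1.26, 2.49 and 1.39 on plates 1, 2 and 3, and Ptn 1.08, 1.82 and 1.60. Tubb2b had -0.89, -0.82 and -0.64, and Rtn1 -1.21, -0.92 and -1.11. Radial glia genes had medians of 0.94, 1.36 and 1.39 and pan-neuronal genes -0.84, -0.43 and -0.70. The smallest adjusted p values on plate 2, 0.0949, belonged to Cd63 (4.15 ± 0.95), a vesicle membrane protein, and to Mir6236 (-4.03 ± 0.92). A test of whether the class difference itself differed between plates called 0 of 6403 genes, with 3.95% at an unadjusted p under 0.05. The same test between SN and N clones called 0, with 1.72% at an unadjusted p under 0.05, 78 genes above 0 (1.22%) and 32 below 0 (0.5%).

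Over sums of the 87 intermediate cells, medians lay between the classes for Dbi, Dpysl3, Tubb2b and Tubb3, but not for Ptn and Tnc. In a fit of all 3 classes, median levels of Dbi were 464 CPM in progenitor-leaning, 163.7 in neuron-leaning and 353 in intermediate sums. Ttyh1 had medians of 113.9, 13.3 and 87.1 CPM and Tubb3 of 640, 1288 and 877 CPM in the same order. Mycn, on the other side, had 1.91, 60.0 and 47.2 CPM. Ptn had 400.5, 142.3 and 402 CPM and Tnc 7.83, 0 and 18.0 CPM, so that intermediate sums had the highest median. Against intermediate sums no gene was called in either class among 9748 tested (0%). At an unadjusted p under 0.05 progenitor-leaning sums had 491 genes (5.04%), 50 above 0 (0.513%) and 441 below 0 (4.52%). Neuron-leaning sums had 494 (5.07%), 88 above 0 (0.903%) and 406 below 0 (4.16%). The smallest adjusted p of the progenitor-leaning contrast was 0.113, shared by Hspbap1, Crabp1 and Proser3, and Crabp1, a retinoic acid-binding protein, had a log2 difference of -3.69 ± 0.86. The median number of genes was 4412 in progenitor-leaning, 4848 in neuron-leaning and 7147 in intermediate cells, whose median exon count was 2439500, and the part of depth in these counts was not tested. Both contrasts use the same intermediate sums.

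Intron counts, which come mostly from unspliced RNA, gave the same comparison with other reads of the same cells. Of 3611 genes tested none was called (0%), with 464 (12.8%) at an unadjusted p under 0.05, 6.18% above 0 and 6.67% below, and limma-voom called none (0%). The smallest adjusted p was 0.0511, for Galnt1 (3.46 ± 0.80), an enzyme of O-linked glycosylation, the kainate receptor gene Grik4 (2.93 ± 0.70), Gm17178 (3.76 ± 0.91) and Zfp943 (-3.51 ± 0.84). Grik4 introns had medians of 59.0 intron CPM in progenitor-leaning and 10.5 in neuron-leaning sums, and reached 5863 and 361. In the same order, Galnt1 introns had medians of 8.26 and 5.68 and reached 5144 and 148.5. Gm17178 had medians of 8.72 and 0.43 and reached 2498 and 581. Zfp943 had medians of 3.34 and 20.7 and reached 197.6 and 19395. Adgrl2, a latrophilin adhesion receptor, had a difference of -2.04 ± 0.51 at an adjusted p of 0.0592. Its medians were 97.8 and 162.85 intron CPM, and it reached 498 and 17994. The part of single high sums in these differences was not tested. Of the genes that led the exon comparison, Dbi introns had a difference of 1.11 ± 0.50 and Ptn introns 0.89 ± 0.69. Dpysl3 introns had -0.58 ± 0.48 and Tubb2b introns -1.02 ± 0.58, while Tnc and Tubb3 were not among the genes tested on introns. Vim introns had a difference of 1.28, Gap43 introns -1.03 and Rtn1 introns 0.15. All these intron differences had an adjusted p between 0.260 and 0.951 in edgeR.

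Among 62 clones with at least 2 kept cells, progenitor-leaning cells made up 38.7% ± 38.0 of a clone in SN clones and 26.2% ± 26.2 in N clones (SD, n = 42 and 20). The difference of 12.4 percentage points had an adjusted p of 0.388 (two-sided permutation test, 100000 resamples, adjusted over the 2 classes). Neuron-leaning cells made up 29.9% ± 36.7 and 30.0% ± 29.4 in the same order (adjusted p 0.993). Within plates the SN minus N difference of the progenitor-leaning share was 23.6, 20.9 and -0.02 percentage points on plates 1 to 3, and that of the neuron-leaning share -32.0, 13.3 and 5.79, with adjusted p of 0.146 and above.

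Within clones, a larger share of green than of red cells was neuron-leaning. Of the 79 neuron-leaning cells 64 were green and 15 red, and of the 81 progenitor-leaning cells 40 were green and 41 red. In the 45 clones with kept cells of both colours, 37.3% ± 41.9 of green cells and 17.4% ± 34.9 of red cells were neuron-leaning (SD over clones). The difference was 19.9 percentage points, with green higher in 17 clones, red higher in 4 and no difference in 24 (adjusted p 0.0063, two-sided sign-flip permutation test with 100000 resamples, adjusted over the 2 classes). Progenitor-leaning cells made up 33.2% ± 43.0 of green and 43.9% ± 43.4 of red cells, a difference of -10.7 points (adjusted p 0.0871). In 18 of these clones a single green cell and in 22 a single red cell stood for the colour.

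By plate, the green minus red difference of the neuron-leaning share was 31.1 points on plate 1 (14 clones, adjusted p 0.0549), 23.3 on plate 2 (15 clones, 0.344) and 6.77 on plate 3 (16 clones, 0.499), all by the same permutation test. It was 22.6 points in the 31 SN clones with both colours (adjusted p 0.0233) and 13.9 in the 14 N clones (0.490), and the difference between these values was not tested. Leaving out each clone in turn gave 18.1 to 22.6 points. Green and red cells of these clones had log10 exon counts of 6.11 ± 0.55 and 6.03 ± 0.62 (p 0.515, permutation test) and, after thinning, 2986 ± 1225 and 2944 ± 1047 genes (p 0.872). Their mitochondrial shares were 5.92% ± 3.72 and 7.62% ± 4.11 (p 0.00863, higher in green in 16 of 45 clones), and the part of this in the class shares was not tested. As a description, median Fabp7 over these clones was 1156 CPM in green against 1960 CPM in red cells, with green higher in 14 of 45 clones and a median difference within clone of -488.3 CPM. Median Stmn2 was 2701 CPM in green against 2778 CPM in red cells, while green was higher in 23 of 45 clones and the median difference within clone was 153.8 CPM.

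**Figure D5:**
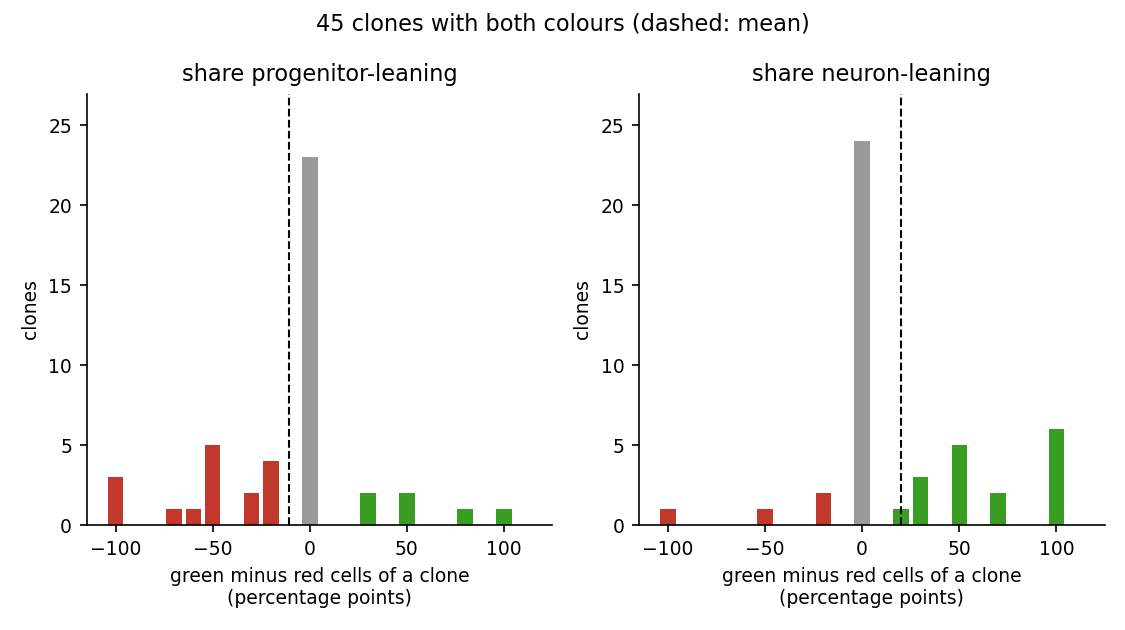
Number of clones by the green minus red difference in the share of progenitor-leaning (left) and neuron-leaning (right) cells, in percentage points, for the 45 clones with both colours, with the mean as a dashed line. The neuron-leaning share is higher in green in 17 clones and in red in 4, and the progenitor-leaning share higher in green in 6 and in red in 16.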

How the data were processed

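Single fluorescent cells were sequenced with Smart-seq3. Per the submitters' processing notes STAR 2.7.9a, R 4.4.0 and the build GRCm39 were used. The authors deposited raw exon and intron counts of 55359 gene IDs in 287 cells. The counting tool, annotation, use of molecular identifiers and strand are not given in the sources used here, so overlapping and antisense genes cannot be told apart. Of the IDs 52083 have a symbol. An ID without one held 16.6% of the exon counts of the kept cells.

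Exon counts were summed per clone and class and tested with edgeR 4.0.16 (quasi-likelihood, TMM scaling, filterByExpr, plate as covariate) in R 4.3.3, with Benjamini-Hochberg adjustment over all genes tested and a threshold of 0.05. The class genes Fabp7 and Stmn2 were left out of the tests. SE is the size of the log2 difference over the square root of F. CPM of sums are TMM-scaled, except the summed levels of the lists of other cell types, which are plain CPM. Alternatives used limma 3.58.1 and DESeq2 1.42.0. DESeq2 was run with its default filtering, so its adjustment did not cover every gene tested. Shares and per-cell measures used permutation tests in Python 3.11.15 (numpy 2.4.6, pandas 2.3.3, scipy 1.17.1). Genes detected were compared after thinning to 20000 exon counts. The 4 labelled cells below that depth were left out of the thinned values. No doublet caller was run. Scripts were tested on simulated data.

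Clone 45 was put on plate 3. The clone pairs the classes, since the labels put cells of both in the same clone, and the within-clone fit has it as block. Named were, per comparison and direction, the 3 genes of smallest p with a count in at least 10 cells, and from each of 33 lists the 4 members of smallest p. Some genes of the lists, and the Dbi window, are not reported here. The classes, genes and lists were chosen with earlier results of these data known. Sequences are from RefSeq tables of GRCm38.p6, not the build of the counts. Exon counts per kept cell ran from 6171 to 13040432.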

Additional observations from a re-analysis of the deposited data

Results flagged for a closer look

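No comparison used the 3 cells that lack a clone label, and 2 of them held counts of the class genes. The first had 8884 CPM of Fabp7 and 1664 CPM of Stmn2, from 1689914 exon counts in 4954 genes. The second had 2227 CPM of Stmn2 and 907 CPM of Fabp7, from 5976683 exon counts in 13298 genes. The third had 2257 exon counts and neither gene. Of 18 groups of values examined for a sample far from the others, none held one, where chance alone gives about 1 in 20.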

How the results depend on the processing

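The count of 0 genes was 15 with DESeq2, 18 with limma-voom, 2 with equal weight per cell, 1 among green cells alone and 0 to 1 leaving out each clone. Without the filter on low counts it was 8454 of 36215, of which 7235 had a count in fewer than 10 cells and 63 were among the 6403 genes otherwise tested. The other scalings, cell filters, class rules, plates and clone types gave 0, as did the clone as replicate block. Within clone DESeq2 gave 303. Leaving out each clone moved the colour difference between -13.23 and -8.69 points for progenitor-leaning cells (-13.2 without clone 61, adjusted p 0.024, and -12.7 without clone 66, 0.0375) and between 18.1 and 22.6 for neuron-leaning cells. Of 93 named genes 19 changed sign in log2 difference somewhere, and the cause was not tested. With equal weight per cell, which put the median of all genes at -0.39 (limma-voom -0.19), these were Dll1 -0.11, Numbl -0.093, Grin1 -0.27, Igf2bp1 -0.25, Pfkp -0.18, Cacna2d2 -0.12 and Emx1 -0.011. With limma-voom Grin1 was -0.45 and Emx1 -0.057. With the replicate block Etv1 was -2.23, Igf2bp1 -1.23 and Trp53inp1 -1.65. Among green cells Dll1 was -0.27, Elavl2 0.078, Trp53inp1 -0.25 and mt-Nd5 -0.020. In SN clones Grin1 was -1.12, Igf2bp3 0.39, Fn1 0.19 and Thy1 0.19, and in N clones Nr4a2 0.19, Scn3a 0.17, Smad5 -0.029 and Trp53inp1 -1.10. Without plate 1 Thy1 was 0.59, without plate 2 Numbl -0.14 and Hmga1 -0.26, and without plate 3 Fn1 0.080. Stricter classes gave Ndufaf3 0.0002456. Leaving out each clone gave Numbl -0.32 (clone 17) to 0.48 and Cacna2d2 -0.0077 (clone 23) to 1.41. Of the sums, 19 progenitor-leaning and 21 neuron-leaning held 1 cell, and the part of depth in the errors of low genes was not tested.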
